A study of Caenorhabditis elegans with 9 samples.

Results

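The comparison set 3 small RNA libraries of prg-1(∆PAZ-domain) animals, called PAZ-deletion here, against 3 of prg-1(Rnase-dead) animals, called RNase-dead. These 6 of the 9 libraries of the series were chosen by their genotype labels, and no wild-type library entered. Both groups were adult hermaphrodites of Caenorhabditis elegans, taken whole at 24 h past mid-L4, the last larval stage, from stocks kept at 25 °C, with 20 to 30 animals per genotype. Both groups carry a mutated prg-1, so neither is a control. A fall, loss or rise in reads or rates is meant here only relative to RNase-dead. The labels give neither allele nor strain names and do not say whether the replicates were separate cultures, so a p-value covers only library-to-library spread, which may be technical. In the growth text the words hermaphrodite and male are both used, while the titles give hermaphrodite. The tables hold small RNAs only, so neither the prg-1 transcript nor any germline marker was available to check the genotypes or the tissue.

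PRG-1 is the Piwi-clade Argonaute of this worm and works in the germline, where it binds piRNAs and uses them as guides to recognise transcripts. piRNAs that are not held by PRG-1 are unstable. In an Argonaute the PAZ domain holds the 3′ end of the guide, and the RNase active site cuts a bound target. The comparison therefore sets loss of the domain that anchors the guide beside loss of target cutting, in animals that both still carry a prg-1 gene. An Argonaute without cutting activity can still silence through the secondary siRNAs that worms make on recognised transcripts, and the library protocol lets such siRNAs be cloned. Their part in the genome-mapped total, by which rates are scaled here, was not tested.

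PAZ-deletion libraries held 1022428, 2115662 and 1688001 genome-mapped reads, and RNase-dead libraries 3121968, 2123922 and 2324942. Reads were counted on 15913 entries of piRNAdb, a database of piRNA sequences, and all rates are reads per 1000000 genome-mapped reads (RPM). A count of 3 reads was worth 1.42 to 2.93 RPM in PAZ-deletion and 0.961 to 1.41 RPM in RNase-dead. PAZ-deletion replicate 1 was the shallowest library, and it stood at one end of its group for several of the entries and segments described here.

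Sense piRNA reads were much scarcer in PAZ-deletion than in RNase-dead. The rates were 1676, 1853 and 1959.7 RPM in the PAZ-deletion libraries, against 6663, 5653 and 6115 RPM in the RNase-dead libraries. No PAZ-deletion library came near an RNase-dead one, and the PAZ-deletion mean was 29.8% of the RNase-dead mean. The difference of mean log2 rates was -1.75 ± 0.10 (SE, n = 3 each), with an exact two-sided permutation p of 0.1, the lowest possible at this group size. In whole animals, fewer piRNA-producing cells and less piRNA per cell cannot be told apart. The difference did not rest on the most abundant entries, since without the 10 of highest mean rate the rates were 1541 ± 153 RPM in PAZ-deletion and 4569.9 ± 423 RPM in RNase-dead (SD, n = 3), a log2 difference of -1.57.

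Reads antisense to the piRNA sequences were reduced less. Their rates were 399, 354 and 399.9 RPM in the PAZ-deletion libraries, against 515, 514 and 521 RPM in the RNase-dead libraries. The groups again did not overlap, and the log2 difference was -0.43 ± 0.06 (SE, n = 3 each; exact permutation p = 0.1). Without the most abundant antisense entry, cel-piR-1599, they were 233, 280.3 and 312 RPM in PAZ-deletion and 481, 475 and 478 RPM in RNase-dead, a log2 difference of -0.81. The balance of the antisense and sense totals within a library also differed between the genotypes. There were 23.8, 19.1 and 20.4 antisense reads per 100 sense reads in PAZ-deletion, against 7.73, 9.10 and 8.53 in RNase-dead. The log2 difference of this ratio, which does not depend on the genome-mapped total, was 1.32 ± 0.12 (SE, n = 3 each; exact permutation p = 0.1). Sense and antisense reads fell mainly on different entries, so the ratio compares totals and not the strands of the same piRNAs. Without cel-piR-1599 the ratio was 14.97 ± 1.02 in PAZ-deletion and 7.81 ± 0.585 in RNase-dead (SD, n = 3), a log2 difference of 0.94.

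**Figure D1:**
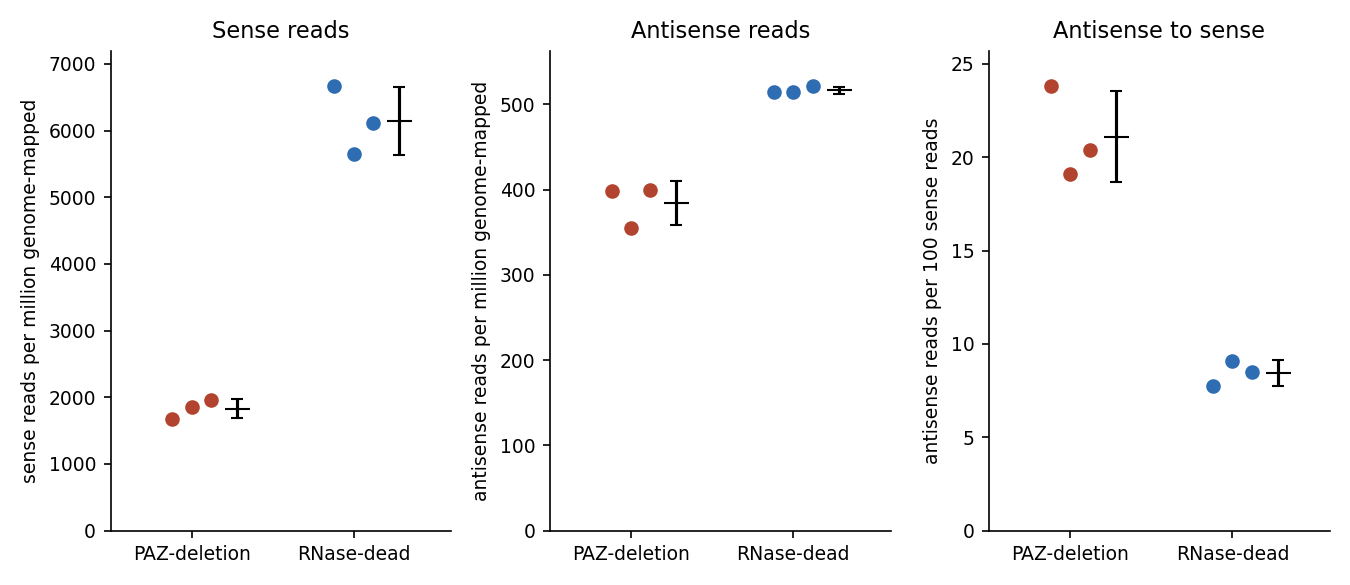
Sense reads (left) and antisense reads (middle) on piRNAdb entries per 1000000 genome-mapped reads, and antisense reads per 100 sense reads (right). Coloured points are the 3 libraries of each genotype, and the black bar with whiskers is the mean ± SD. Sense reads averaged 1829.7 RPM in PAZ-deletion and 6144 RPM in RNase-dead, antisense reads averaged 384 RPM in PAZ-deletion and 517 RPM in RNase-dead, and no pair of groups overlapped.

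The entries at the top of the list were not the same in the mutants. Among the 10 most abundant entries of each genotype, cel-piR-9221 alone stood in both lists, and of the 50 most abundant of each, 20 were shared (40.0% of either list). Replicates of one genotype agreed better, since pairs of PAZ-deletion libraries shared 30 to 32 of their 50 most abundant entries, pairs of RNase-dead libraries 42 to 43, and pairs across genotypes 17 to 23. The shallower PAZ-deletion libraries rank their entries from fewer reads, which lowers the overlap by an amount that was not tested. In PAZ-deletion the list began with cel-piR-14240 (95.3 ± 43.3 RPM), cel-piR-12706 (72.2 ± 15.7 RPM) and cel-piR-156 (53.8 ± 9.81 RPM; SD, n = 3), which ranked 222, 23 and 22 in RNase-dead. In RNase-dead it began with cel-piR-10036, cel-piR-6101 and cel-piR-2077, which ranked 16, 18 and 12 in PAZ-deletion.

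The leading RNase-dead entry, cel-piR-10036, was at 3.91, 16.5 and 13.0 RPM in the PAZ-deletion libraries, against 532, 517 and 486 RPM in the RNase-dead libraries. Every PAZ-deletion library was far below every RNase-dead one, and replicate 1 was the lowest, with 4 reads. Pooled over libraries the PAZ-deletion rate was 2.46% of the RNase-dead rate. The log2 fold change was -5.40 ± 0.34 (SE, edgeR quasi-likelihood test, Benjamini-Hochberg FDR 1.54e-51). That SE borrows its spread mainly from all entries together, so its size says little about the replicates of a single entry. The next entry, cel-piR-6101, was at 5.87, 14.7 and 9.48 RPM in the PAZ-deletion libraries, against 397, 317 and 358 RPM in the RNase-dead libraries. For cel-piR-2077 the rates were 7.82, 13.2 and 18.4 RPM in PAZ-deletion, against 293, 246 and 269 RPM in RNase-dead. Both fell, by 5.07 and 4.30 on the log2 scale. The 3 entries leading RNase-dead held 1.05, 2.40 and 2.09% of all sense piRNA reads in PAZ-deletion, against 18.3, 19.1 and 18.2% in RNase-dead. They were picked as the leaders of RNase-dead, so a larger share there is partly built into the choice, and no test is given.

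Of the other 7 entries among the 10 most abundant, 4 were lower, 2 were higher (cel-piR-12706 and cel-piR-14240) and cel-piR-156 was not called. Pooled over the libraries of a genotype, cel-piR-7578, cel-piR-8214 and cel-piR-6252 were at 2.06%, 3.26% and 5.56% of their RNase-dead rates. The last of these was even across PAZ-deletion libraries, at 4.89, 5.20 and 4.74 RPM, against 92.6, 88.0 and 86.5 RPM in the RNase-dead libraries. A milder fall was that of cel-piR-9221, at 9.78, 28.4 and 30.8 RPM in PAZ-deletion and 57.7, 44.3 and 57.6 RPM in RNase-dead, and its log2 fold change was -1.15 ± 0.31 (SE; edgeR FDR 0.000802). PAZ-deletion replicate 1 was the lowest library for that entry, and the other 2 also lay below every RNase-dead library. Its direction holds per genome-mapped read, since with library sizes from the tested piRNA counts the log2 fold change was 0.80.

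Over all entries, edgeR called 321 lower and 13 higher in PAZ-deletion at an FDR under 0.05, out of 746 tested, 44.8% of them (43.0% lower and 1.74% higher). An entry was tested if it had at least 10 sense reads over the 6 libraries and a read in at least 3 of them, and such entries covered 73.2 ± 2.89% of sense reads in PAZ-deletion, against 85.4 ± 0.303% in RNase-dead. For 413 tested entries, 55.4%, the groups did not overlap. The median log2 fold change was -1.72. It was -1.55 when the 95 entries without a PAZ-deletion read and the 1 without an RNase-dead read were given 3 counts in that group. DESeq2 with the same library sizes called 207 lower and 7 higher. Scalings taken from the piRNA counts themselves moved the median to -0.84 with TMM factors, -0.97 with DESeq2 median-ratio factors and 0.12 with library sizes from the tested counts. Calls then split into 47 higher and 177 lower, 26 higher and 109 lower, and 125 higher and 77 lower, so the direction of a call is relative to the genome-mapped reads.

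**Figure D2:**
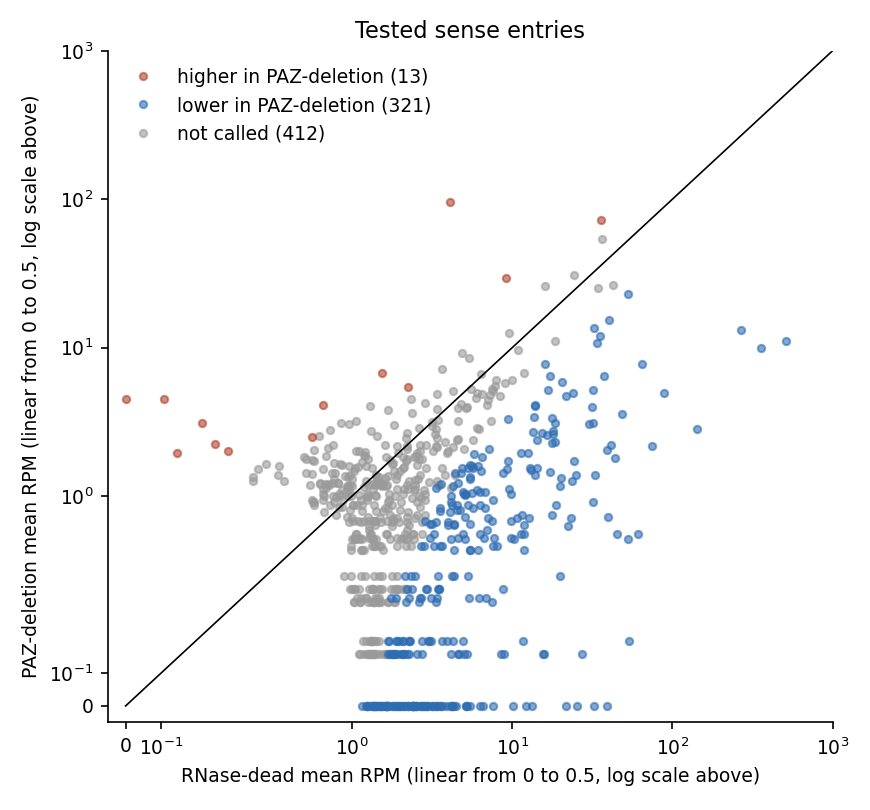
Mean sense rate of each of the 746 tested entries in PAZ-deletion (vertical axis) and RNase-dead (horizontal axis), in RPM, linear near 0 and logarithmic above, with the line of equal levels. The 321 entries called lower in PAZ-deletion lie below the line and reach 0 on the vertical axis, and the 13 called higher lie above it.

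Many entries had no read at all in PAZ-deletion. Of the 4375 entries with a sense read in the 6 libraries, 263 had one in all RNase-dead libraries and in no PAZ-deletion library. These entries held 3867 reads, 8.22% of the sense reads of RNase-dead. The reverse pattern was seen in 11 entries with 62 reads, 0.693% of the sense reads of PAZ-deletion. RNase-dead libraries had more sense reads, so the first pattern is the easier to reach, and for entries with few RNase-dead reads a count of 0 does not show complete loss. A read in all 6 libraries was found for 241 entries.

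Of the 8 largest decreases by edgeR log2 fold change, 7 had no PAZ-deletion read at all. The first, cel-piR-2717, had 0 reads in every PAZ-deletion library, against 148, 69 and 87 reads in the RNase-dead libraries, and was at least 64.6-fold lower (floor of 3 counts over the group). Next came cel-piR-3162, with 0 reads against 64, 68 and 105, and cel-piR-13631, with 0 reads against 83, 46 and 65. They were at least 50.4-fold and at least 41.2-fold lower. The RNase-dead libraries differed among themselves, by more than 2-fold for cel-piR-3162, but each was at 20.5 RPM or more for these 3 entries. Likewise without a PAZ-deletion read, cel-piR-15599 was at least 35.9-fold lower and cel-piR-9721 at least 22.7-fold lower. For cel-piR-1159 the bound was at least 19.5-fold lower and for cel-piR-4757 at least 16.1-fold lower. The exception, cel-piR-238, had 1 PAZ-deletion read, in replicate 3, against 402 in RNase-dead. Its ratio of pooled rates, RNase-dead over PAZ-deletion, was 256 with an exact 95% counting interval of 45.7 to 10146.5, which covers counting error only. A count of 0 makes the fitted fold change extreme, so this ranking favours entries without a PAZ-deletion read. Several of the bounds lie below the ratio of pooled rates of cel-piR-7578, 48.5, which was read in both genotypes.

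Increases were few. Of the 13 entries called higher, 6 had at least 20 reads and groups that did not overlap. The largest that was read in both genotypes was cel-piR-14240, at 143, 85.1 and 58.1 RPM in the PAZ-deletion libraries, against 2.88, 3.77 and 5.59 RPM in the RNase-dead libraries. Every PAZ-deletion library was at least 10 times above every RNase-dead one, although the PAZ-deletion libraries differed among themselves by more than 2-fold. Its log2 fold change was 4.53 ± 0.37 (SE, edgeR FDR 2.65e-32), and it made up 5.36 ± 2.86% of sense reads in PAZ-deletion and 0.0671 ± 0.0241% in RNase-dead (SD, n = 3).

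The entry cel-piR-4006 was read in PAZ-deletion alone, with 3, 16 and 5 reads against 0 in each RNase-dead library. By the floor of 3 counts it was at least 12.5-fold higher, which leaves out the counting error of its own few reads. A smaller rise was seen in cel-piR-1592, at 36.2, 21.7 and 30.8 RPM in PAZ-deletion and 6.41, 11.8 and 9.46 RPM in RNase-dead. The rates of cel-piR-12706 were 54.8, 76.6 and 85.3 RPM in PAZ-deletion, against 41.6, 32.5 and 33.5 RPM in RNase-dead. Their log2 fold changes were 1.68 ± 0.35 (SE, edgeR FDR 1.28e-05) and 1.01 ± 0.29 (SE, edgeR FDR 0.00177). The other risers were scarce, with 19 reads in PAZ-deletion and 5 in RNase-dead for cel-piR-862, and 32 reads in PAZ-deletion and 13 in RNase-dead for cel-piR-15075. Without PAZ-deletion replicate 3, the highest of its group for cel-piR-15075, that entry was no longer called (log2 fold change 1.42, edgeR FDR 0.0904).

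**Figure D3:**
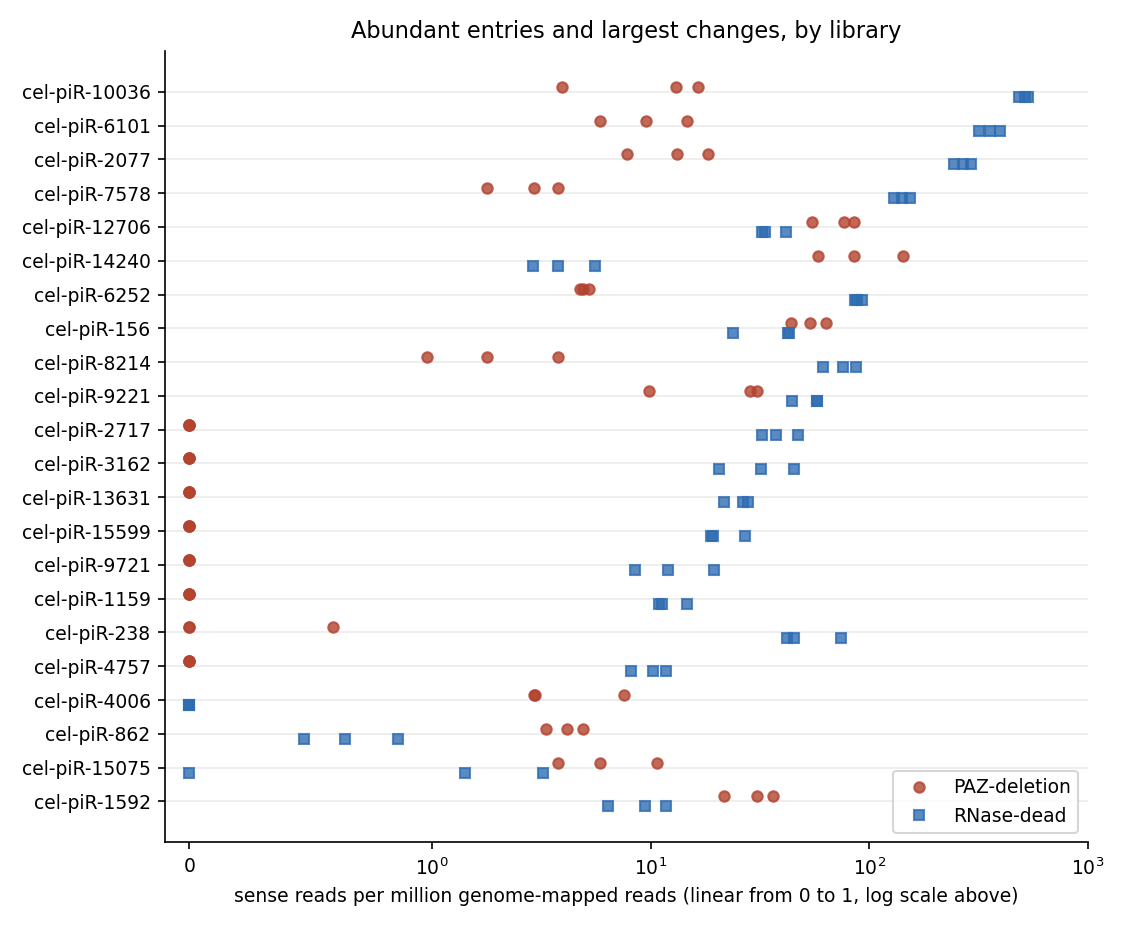
Sense rate in each library, in RPM (linear from 0 to 1, logarithmic above), of the 10 most abundant entries and the largest decreases and increases. Circles are the 3 PAZ-deletion libraries and squares the 3 RNase-dead libraries. Entries without PAZ-deletion reads have their circles at 0, and cel-piR-14240 has its circles between 58.1 and 143 RPM, to the right of all its squares.

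The difference between the mutants was uneven among well-measured entries. For the 138 entries with at least 60 sense reads over the 6 libraries, the PAZ-deletion rate was a median of 13.6% of the RNase-dead rate, with quartiles of 5.10% and 48.9%. In 86 of them (62.3%) it was under 20%, and 32 of these were under 5%. In 34 (24.6%) it was 50% or more, and 10 of these were at 100% or above. A filter on total reads favours entries that are high in the deeper RNase-dead libraries, and the total over all sense reads was 29.8% pooled. Of the 138, edgeR called 102 lower and 3 higher, and PAZ-deletion lay below RNase-dead in every library for 106 and above in every library for 6. Over all 746 tested entries 43.0% were lower and 1.74% higher, and 55.4% did not overlap. Those entries also passed a filter on total reads, so the same lean is present there. Among them, 95 had no PAZ-deletion read and 1 had no RNase-dead read.

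**Figure D4:**
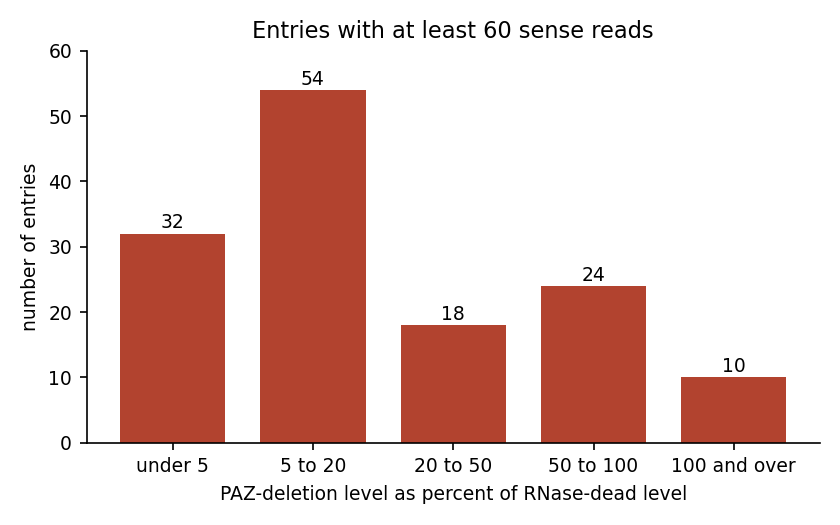
Number of entries, among the 138 with at least 60 sense reads, by their pooled PAZ-deletion rate as a percentage of the pooled RNase-dead rate. The bars stand at 32, 54, 18, 24 and 10 entries from the lowest band to the highest. The bands are of unequal width, and 86 of the 138 entries lie in the lowest 2.

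Of the 138, 33 were not called in either direction. Nearest to no change was cel-piR-4642, at 8.80, 2.36 and 8.89 RPM in PAZ-deletion and 6.09, 6.59 and 6.45 RPM in RNase-dead, a log2 fold change of -0.03 ± 0.45 (SE). The next 4 were cel-piR-7689, cel-piR-1166, cel-piR-13560 and cel-piR-10899, with log2 fold changes of -0.10 to -0.26. All 5 overlapped between the groups. Their SEs of 0.38 to 0.50 leave room for sizeable changes, so equality was not shown, and relative to the piRNA pool all 5 were called higher. Better measured was cel-piR-156, at 63.6, 44.0 and 53.9 RPM in PAZ-deletion and 23.7, 42.8 and 42.6 RPM in RNase-dead. It was higher in every PAZ-deletion library by a small margin and was not called (log2 fold change 0.56 ± 0.29 SE, edgeR FDR 0.103).

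Relative to the piRNA reads themselves, the change ran both ways. With library sizes set to sense piRNA counts, edgeR called 104 entries higher and 89 lower in PAZ-deletion out of the same 746 (13.9% and 11.9%), with a median log2 difference in share of -0.08. All 89 were also lower per genome-mapped read, and all 13 entries higher per genome-mapped read were higher here. The other 91 that took a larger share had not been called per genome-mapped read. They include cel-piR-15095, at 14.7, 32.6 and 32.0 RPM in PAZ-deletion and 59.9, 38.6 and 28.8 RPM in RNase-dead, and cel-piR-1430, at 15.6, 33.1 and 26.7 RPM in PAZ-deletion and 40.7, 27.8 and 34.4 RPM in RNase-dead. Their log2 differences in share were 1.10 ± 0.29 (SE, edgeR FDR 0.00135) and 1.34 ± 0.29 (SE, edgeR FDR 8.07e-05). With TMM factors 47 were higher and 177 lower, with DESeq2 median-ratio factors 26 and 109, and neither cel-piR-15095 nor cel-piR-1430 was called. With the pool counted without its 10 most abundant entries, 84 were higher and 108 lower.

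Sense reads were spread over more entries in PAZ-deletion. The 10 most abundant entries of each library held 24.0, 22.0 and 20.2% of sense reads in PAZ-deletion, against 27.0, 27.99 and 27.5% in RNase-dead, a difference of -5.43 ± 1.15 percentage points (SE, exact permutation p = 0.1). To reach 50% of sense reads took 105, 110 and 112 entries in PAZ-deletion and 60, 55 and 55 entries in RNase-dead. When every library was reduced in expectation to the 1714 sense reads of the smallest, 788 ± 27.99 entries had a read in PAZ-deletion and 627 ± 6.76 in RNase-dead (SD, n = 3), with an exact permutation p of 0.1. As sequenced the order was the other way, with 820, 1288 and 1165 entries in PAZ-deletion and 2573, 1956 and 2105 in RNase-dead. Fewer entries were thus read in PAZ-deletion in all, and more for a given number of piRNA reads.

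**Figure D5:**
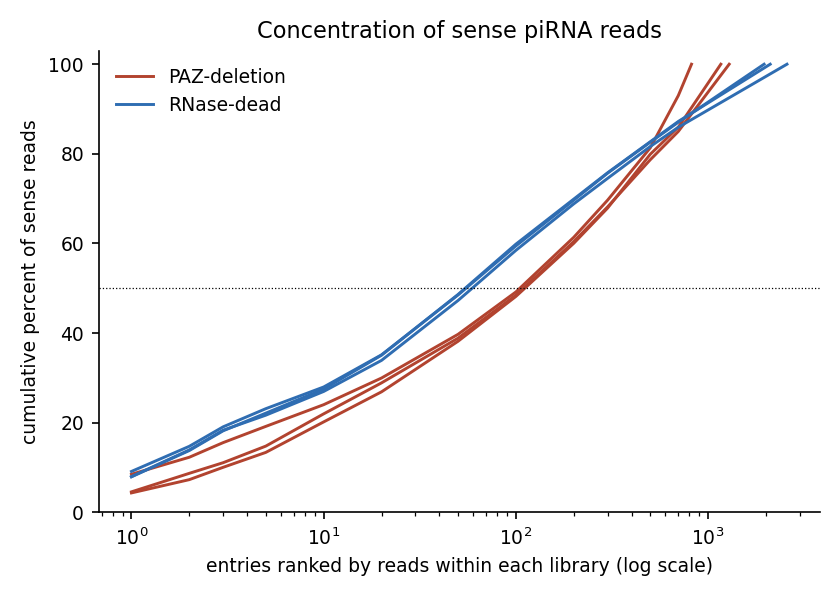
Cumulative percentage of sense piRNA reads (vertical axis) held by the most abundant entries of each library (horizontal axis, log scale), with 1 line per library. The 3 RNase-dead lines rise faster and cross the dotted line at 50% at 55 to 60 entries, and the 3 PAZ-deletion lines cross it at 105 to 112.

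The summed rate was lower in PAZ-deletion in every class of abundance. When the tested entries were ranked by mean rate over the 6 libraries into 5 classes, the summed rate of the most abundant 150 was 846 ± 76.7 RPM in PAZ-deletion and 3944 ± 305 RPM in RNase-dead, 21.4%. In the classes after it the PAZ-deletion sums were 35.0%, 40.5%, 47.1% and 32.4% of RNase-dead, and no class overlapped between genotypes. The classes hold entries filtered and ranked by these same values, so a lower PAZ-deletion sum is partly built in and no test is given. Of the tested entries, 95 had no PAZ-deletion read and 1 had no RNase-dead read. The untested entries, too scarce for the filter, added up to 488 ± 20.2 RPM in PAZ-deletion and 895 ± 80.5 RPM in RNase-dead (SD, n = 3), or 54.6%. Ranking by a mean that includes RNase-dead levels places entries low in PAZ-deletion higher only through RNase-dead. These percentages therefore describe the classes and were not tested against each other.

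Antisense reads fell mainly on entries with hardly any sense reads. Entries with more antisense than sense reads numbered 876 and held 90.8 ± 1.28% of antisense reads in PAZ-deletion and 91.8 ± 1.20% in RNase-dead (SD, n = 3). They were picked by these same reads, so a large share is partly built into the choice. Sense reads on them summed to 16.6 ± 5.09 RPM in PAZ-deletion and 22.3 ± 1.29 RPM in RNase-dead (SD, n = 3). Only 4 entries passed the count filter on both strands, too few to compare the strands of the same entries. Their median log2 fold change was 0.23 for sense and 0.09 for antisense reads. The antisense change was above the sense change in 2 of the 4. The 10 most abundant sense entries and the largest sense decreases and increases had 0 antisense reads in each of the 6 libraries. Of the uncalled entries named above, cel-piR-1166 and cel-piR-13560 had 1 antisense read in some libraries. Of 91 entries tested on antisense reads, edgeR called 26 lower and 4 higher in PAZ-deletion, 33.0% of them (28.6% lower and 4.40% higher), with a median log2 fold change of -0.72. The count of 30 calls was 15 without PAZ-deletion replicate 2 and 17 without PAZ-deletion replicate 3. In DESeq2 with the same library sizes it was 17, with 13 lower and 4 higher. With library sizes from the tested counts it was 21, with 16 lower and 5 higher and a median log2 fold change of -0.31.

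The most abundant antisense entry, cel-piR-1599, had no sense read in any of the 6 libraries. Its antisense rates were 166, 74.2 and 88.3 RPM in PAZ-deletion, against 33.3, 39.6 and 43.0 RPM in RNase-dead, and its log2 fold change was 1.49 ± 0.31 (SE; edgeR FDR 2.04e-05). It was higher in every PAZ-deletion library and highest in replicate 1, where it alone made up 41.7% of antisense reads. The next, cel-piR-1090, had no antisense read in PAZ-deletion, against 24.3, 24.0 and 23.2 RPM in the RNase-dead libraries, and was at least 38.5-fold lower. Similarly low in PAZ-deletion were cel-piR-1259, with 1 antisense read in PAZ-deletion and 160 in RNase-dead, and cel-piR-2237, cel-piR-10514 and cel-piR-6514. The last 3 had 0 reads in PAZ-deletion and were at least 19.1-fold, 18.3-fold and 17.2-fold lower. A smaller fall in cel-piR-10136 (log2 fold change -1.08, edgeR FDR 0.0320) was not called without PAZ-deletion replicate 2, without RNase-dead replicate 1 or without RNase-dead replicate 2, with edgeR FDRs of 0.22, 0.156 and 0.155. Antisense rates of cel-piR-5427 overlapped between the genotypes.

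Antisense increases beside cel-piR-1599 were seen in 3 scarce entries. The rates of cel-piR-14696 were 19.6, 4.73 and 6.52 RPM in PAZ-deletion and 1.602, 2.82 and 0.430 RPM in RNase-dead. Its log2 fold change of 2.53 ± 0.58 (SE, edgeR FDR 0.000141) leaned on the first of these libraries. The entries cel-piR-11247 and cel-piR-1276 were read antisense in PAZ-deletion alone, with 21 and 14 reads in all.

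The small RNA pool that serves as denominator differed between the mutants as well. Of 104 genome segments of up to 1000000 bases, edgeR called 59 lower and 14 higher in PAZ-deletion per genome-mapped read, 70.2% of them (56.7% lower and 13.5% higher), and the groups did not overlap for 79 (76.0%). The median log2 fold change was -0.40. With TMM factors it was -0.03, with 30 higher and 38 lower, and with DESeq2 median-ratio factors -0.01, with 36 higher and 39 lower. The largest decrease was in the first segment of chromosome X, bases 1 to 1000000, at 483, 511 and 584 RPM in PAZ-deletion, against 4011, 4206 and 4260.3 RPM in RNase-dead. Replicates were tight on both sides of that 8-fold gap, a log2 fold change of -2.98 ± 0.13 (SE). Also on chromosome X, the segments at bases 15000001 to 16000000 and 4000001 to 5000000 fell by 1.90 and 1.69 on the log2 scale. None of these segments holds more than 13 annotated piRNA genes.

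Higher segments included chromosome V, bases 17000001 to 18000000, with 15 annotated rRNA genes, at 64274.5, 42428 and 31559.8 RPM in PAZ-deletion and 19514, 23290.4 and 19340.3 RPM in RNase-dead. The last segment of chromosome I, with 4 annotated rRNA genes, held 4.31, 4.07 and 5.56% of genome-mapped reads in PAZ-deletion and 1.64, 2.62 and 2.55% in RNase-dead. Leaving that segment out of the denominator gave a log2 difference in total sense rate of -1.71. Another riser was chromosome IV, bases 5000001 to 6000000, with 1638 annotated piRNA genes and 5 annotated miRNA genes, at 65017, 46582 and 41556 RPM in PAZ-deletion and 22835, 25855 and 22407 RPM in RNase-dead. These levels exceed the whole sense piRNA rate of the same libraries, so the reads of that segment are mostly not those counted on piRNA entries. PAZ-deletion replicate 1 was the highest library for this segment and for that of chromosome V. On chromosome X, bases 9000001 to 10000000 were at 12582, 10642 and 8000.00 RPM in PAZ-deletion and 4750.2, 5104 and 5289 RPM in RNase-dead. Of the 7 segments with at least 500 annotated piRNA genes, all on chromosome IV, 4 were lower, 1 higher and 2 not called. Over all 104 segments 56.7% were lower and 13.5% higher, so these counts do not set the piRNA-rich segments apart.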

How the data were processed

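The members, lists and tests of this comparison were chosen with earlier results of these data known. Per the labels' protocols, a mirVana kit yielded the small RNA, acid pyrophosphatase made 5′ triphosphate RNAs clonable, and a TruSeq kit was used for the libraries. Tools listed in the submitters' processing notes are FastQC 0.12.0 and cutadapt 3.7. Neither an aligner, nor a rule for reads matching several places, nor a build is given in the sources used here, so near-identical entries may share reads. The deposited values were raw counts of sense and antisense reads per entry of piRNAdb release 1.7.6 and raw counts per genome segment, per the file headers. Entries carry no sequence or position in the tables, so none is printed. The authors' deposited summary table gave the total reads per library, used in 1 alternative, and its genome-mapped and sense piRNA totals equalled the sums of the counts. Total rows were left out of every test.

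Segments have lengths only and were given chromosomes in the 1 order in which every annotated gene of Ensembl release 115 (WBcel235) ends within its chromosome. Entries and segments were tested with edgeR 4.0.16 (glmQLFit and glmQLFTest; R 4.3.3), taking genome-mapped reads as library sizes, with the 6 libraries in 1 fit. A call needed a Benjamini-Hochberg FDR under 0.05. SEs of log2 fold changes were computed as the absolute change divided by the square root of F. DESeq2 1.42.0 was an alternative. Totals, ratios, shares and numbers of entries were compared by exact two-sided permutation tests over libraries (Python 3.11.15), which cannot go below 0.1. Fits were tested on simulated data in which a minority of features changed, in either direction at random. The sense calls here were mostly lower, so the simulation does not give their rate of false calls. Reads carried no molecular identifiers, so the 95% exact intervals reflect counting error alone. The floor of 3 counts stands in for the group without reads. Bounds from it leave out the counting error of the group with reads, so they are not 95% limits.

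Named entries were the 10 of highest mean rate, the 8 largest decreases and up to 8 increases among called entries with at least 20 reads and groups that do not overlap, the 5 uncalled entries with at least 60 reads nearest to no change, the 5 most abundant with a larger share of the pool, and, for antisense reads, the 5 most abundant and up to 5 called each way. The 3 segments with the largest change each way were named, and the entries leading each genotype, the last segment of chromosome I and the piRNA-rich segments were added after their values were seen.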

Additional observations from a re-analysis of the deposited data

How the results depend on the processing

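The sense, antisense and ratio totals, the share of the 10 most abundant entries and the number of entries at equal piRNA reads kept their direction under every alternative run on them, which were other denominators, other list sizes, a depth of 1000 reads and each library left out. The log2 difference in total sense rate ran from -1.81 to -1.69 with 1 library left out, in antisense rate from -0.46 to -0.37 and in their ratio from 1.23 to 1.39. Their exact p cannot pass 0.05 in any setting. The 334 calls among sense piRNA entries became 214 with DESeq2 at the same library sizes, 135 with DESeq2 median-ratio factors, 202 with library sizes from the tested counts and 197 among the 261 entries with at least 30 reads, where fewer entries were tested. They ran from 265 to 317 with 1 library left out, the same entries being tested throughout. The 193 calls for sense piRNA entries relative to the piRNA pool became 119 with DESeq2 and 113 to 176 with 1 library left out, at 113 without PAZ-deletion replicate 2 and 128 without PAZ-deletion replicate 3. The 30 calls among antisense piRNA entries became 17 with DESeq2, 12 with at least 30 reads (26 entries tested), 14 without a filter and 15 to 27 with 1 library left out. With library sizes from the tested counts, which remove the common fall, cel-piR-9221 moved to a log2 fold change of 0.80, and those of cel-piR-4642, cel-piR-7689, cel-piR-1166, cel-piR-13560, cel-piR-10899, cel-piR-15095 and cel-piR-1430 became 1.90, 1.83, 1.83, 1.80, 1.67, 1.31 and 1.55. Calls among genome segments numbered 63 to 80 in all alternatives, but their split moved from 14 higher and 59 lower to 30 and 38 with TMM factors and 36 and 39 with DESeq2 median-ratio factors, which shift the median segment to about 0.

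Replicate numbers are shared by the genotypes, and the main fits used no pairing. Same-numbered libraries had correlations of deviations over tested entries of -0.08, -0.06 and -0.03. Counting noise in scarce entries pulls such correlations toward 0, so they do not settle whether the libraries were paired. With the replicate block edgeR called 238 sense piRNA entries, 113 relative to the pool, 14 antisense piRNA entries and 66 segments. It called 7 sense entries higher in place of 13, and neither cel-piR-12706 (FDR 0.062) nor antisense cel-piR-1599 (FDR 0.104) was called, and the paired differences of the totals were unchanged at a sign-flip exact p of 0.25, the smallest 3 pairs allow. Depth limits the scarce entries. Below 3 counts, 0.961 to 2.93 RPM, presence and absence cannot be told apart.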

Other observations

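By chromosome, the share of genome-mapped reads was higher in every PAZ-deletion library than in every RNase-dead library on chromosome X, at 14.2, 12.6 and 11.9% in PAZ-deletion and 9.04, 9.49 and 9.53% in RNase-dead, although the largest falls of single segments were on that chromosome. Chromosome III was likewise higher, at 20.6 ± 1.28% in PAZ-deletion and 18.4 ± 0.795% in RNase-dead (SD, n = 3), and chromosomes I and II were lower. Chromosome IV, which holds 14714 of 15363 annotated piRNA genes, held 15.6 ± 0.0738% in PAZ-deletion and 15.6 ± 0.290% in RNase-dead, and chromosome V, which holds 202, held 12.4 ± 0.545% in PAZ-deletion and 12.3 ± 0.345% in RNase-dead (SD, n = 3). Both overlapped, each with an exact permutation p of 0.8, which does not show that the shares are equal. The mitochondrial segment was at 0.833, 0.735 and 0.622% in PAZ-deletion and 0.379, 0.432 and 0.384% in RNase-dead. For chromosomes I, II, III and X and the mitochondrial segment the exact permutation p was 0.1, before adjustment over 7 comparisons.

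Among the 138 entries with at least 60 sense reads, PAZ-deletion replicate 1 was the lowest library of its group for 73 and the highest for 25.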
